A study of Mus musculus with 28 samples.

Results

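At day 4 of neural differentiation in mouse P19 cells, 4502 of 47842 merged histone acylation regions (9.41%) carried acetylated lysine 9 of histone H3 (H3K9ac) and lactylated lysine 18 (H3K18la) but no shared crotonylated lysine 9 (H3K9cr). They are called dual regions here. They were chosen by the measured peaks of the 6 day 4 ChIP-seq lists: the bases covered in both replicate lists were taken for each mark, the 3 sets were merged where they overlapped or touched, and merged regions that held H3K9ac and H3K18la but no H3K9cr were kept. The same merge gave 18788 regions with all 3 marks, 5756 with H3K9ac and H3K9cr, 4822 with H3K9ac alone and 13825 with H3K18la alone. H3K9cr was rare without H3K9ac: 126 regions held it alone and 23 held it with H3K18la.

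P19 is an established mouse embryonal carcinoma line, a pluripotent tumour line that forms neural cells in retinoic acid, and all groups used it with no genetic change in the labels. Day 0 cells were untreated. Day 4 cells had received 1 µM retinoic acid for 4 days and are labelled neural stem and progenitor cells, and day 8 cells had then been replated on poly-D-lysine in medium for neurons. A separate pair of cultures was collected on day 2 after receiving, from day 1 of the retinoic acid, either MS-275, which inhibits class I histone deacetylases (1 µL of stock at 10 mM), or DMSO as the solvent control (1 µL). The sets used were 2 ChIP-seq libraries per mark and 2 ATAC-seq libraries at day 4, 1 ChIP-seq library per mark and treatment at day 2, and 10 RNA-seq libraries, 2 in each of 5 groups. The ChIP was done on native chromatin, without crosslinking.

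Acyl groups on histone lysines neutralise the lysine's charge and can be bound by reader proteins. Acetylation, crotonylation and lactylation draw on different acyl-CoA donors, which link the marks to metabolism, and class I deacetylases can remove more than one kind of acyl group. H3K9ac is best known from active promoters and enhancers, and H3K18la was described as a mark tied to lactate produced by glycolysis.

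Total estimated counts were 18115738 to 19586107 per RNA library. How deeply the ChIP-seq and ATAC-seq libraries were sequenced is unknown, since peak lists do not record it. The day 4 label was checked against marker lists with edgeR's quasi-likelihood test and Benjamini-Hochberg adjustment. Of 31 neural stem and progenitor genes tested, 28 were higher at day 4 than at day 0 and 3 lower, beside 36.2% and 36.1% of all 17789 genes tested. Markers of other cells also rose: 30 of 32 neuron genes, 15 of 18 fibroblast and mesenchyme genes and 11 of 15 neural crest genes. Summed CPM (counts scaled to the library's size) of the neuron list was 741.4 and 761.6 at day 0, 5192 and 4930 at day 4 and 7247 and 6673 at day 8. The fibroblast list summed to 634.1 and 633.2 at day 0 and 1823 and 1989 at day 4, and the neural crest list to 102.9 and 104 and then 677.5 and 654. No member of these 3 lists was at 0 in both day 4 libraries. Of 20 pluripotency genes, 17 fell. The part of these other cells in the gene results below was not tested, and in bulk RNA fewer cells of a type and less RNA per cell cannot be told apart.

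Few dual regions sat on gene starts, and the starts they did cover were poor in CG dinucleotides. A start from RefSeq (GRCm38.p6) lay inside 92 dual regions. The 109 promoter windows of those starts, each from 250 bases before to 50 after the start, had a median of 1.67 CG dinucleotides per 100 bases and a GC content of 53.0%. The 11564 windows with a start inside a region with all 3 marks had a median of 7.00 CG per 100 bases and 62.0% GC. Over all 32851 windows the medians were 2.33 and 52.7%, and over the 18735 windows in no region they were 1.00 and 47.7%. The 138 windows with a start inside an H3K18la alone region had medians of 1.33 and 52.0%. In CG the dual windows lay between the unmarked starts and all starts, in GC they were close to all starts, and in both they were close to H3K18la alone and below the starts with all 3 marks. Of the dual windows 31.2% belonged to protein-coding genes, against 26.1% with H3K18la alone, 84.3% with all 3 marks and 64.7% of all windows.

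As examples, the 250 bases upstream of 6 starts follow, 5′ to 3′ on the gene's strand, with CG dinucleotides in capitals. Vsir, Rbfox3 and Acy3 are start genes whose RNA is described below. Tmprss5 was added after its values were seen, as a start in a dual region open in both ATAC lists, and Notch1 and Hes5 are starts with all 3 marks whose distal neighbourhood held dual regions. Vsir is read from chr10:60346601-60346850 on the plus strand, Rbfox3 from chr11:118761042-118761291 on the minus strand and Acy3 from chr19:3986320-3986569 on the plus strand. Tmprss5 is read from chr9:49102478-49102727 on the plus strand, Notch1 from chr2:26503823-26504072 on the minus strand and Hes5 from chr4:154960673-154960922 on the plus strand, all from RefSeq on GRCm38.p6.
Vsir: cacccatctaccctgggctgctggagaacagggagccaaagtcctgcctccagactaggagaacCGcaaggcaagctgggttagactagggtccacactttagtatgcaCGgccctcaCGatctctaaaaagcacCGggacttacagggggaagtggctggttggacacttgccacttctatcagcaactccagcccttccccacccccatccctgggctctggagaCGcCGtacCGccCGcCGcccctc
Rbfox3: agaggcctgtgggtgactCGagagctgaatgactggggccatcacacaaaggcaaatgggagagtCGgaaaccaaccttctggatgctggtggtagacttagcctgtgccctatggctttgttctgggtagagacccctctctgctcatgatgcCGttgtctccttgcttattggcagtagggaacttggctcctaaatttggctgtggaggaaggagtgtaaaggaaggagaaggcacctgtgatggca
Acy3: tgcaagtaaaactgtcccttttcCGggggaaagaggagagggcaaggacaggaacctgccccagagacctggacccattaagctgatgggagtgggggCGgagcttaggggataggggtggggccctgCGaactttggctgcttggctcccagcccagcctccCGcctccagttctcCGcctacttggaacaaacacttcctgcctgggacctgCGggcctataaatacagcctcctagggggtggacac
Tmprss5: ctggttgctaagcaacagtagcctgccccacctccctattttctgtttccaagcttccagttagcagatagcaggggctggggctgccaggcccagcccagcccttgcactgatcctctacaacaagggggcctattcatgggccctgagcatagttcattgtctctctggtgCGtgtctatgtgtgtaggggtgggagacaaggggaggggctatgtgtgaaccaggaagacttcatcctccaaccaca
Notch1: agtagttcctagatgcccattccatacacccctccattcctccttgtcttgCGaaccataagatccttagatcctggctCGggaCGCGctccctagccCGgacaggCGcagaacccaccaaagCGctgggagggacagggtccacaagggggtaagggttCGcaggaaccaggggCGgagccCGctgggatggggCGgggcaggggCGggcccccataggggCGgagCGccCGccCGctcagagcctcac
Hes5: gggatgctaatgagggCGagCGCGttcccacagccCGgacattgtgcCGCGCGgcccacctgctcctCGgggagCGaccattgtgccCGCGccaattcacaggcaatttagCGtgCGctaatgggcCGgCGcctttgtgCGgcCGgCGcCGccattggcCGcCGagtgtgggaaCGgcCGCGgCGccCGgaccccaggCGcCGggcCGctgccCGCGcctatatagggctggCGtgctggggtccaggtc
The 4 dual starts held 9 (Vsir), 3 (Rbfox3), 6 (Acy3) and 1 (Tmprss5) CG dinucleotides in these 250 bases. Notch1 held 16, or 6.40 per 100 bases, near the median of the windows with all 3 marks. Hes5 held 32, or 12.8 per 100 bases, above that class's upper quartile of 9.67, so the contrast with Hes5 is larger than is usual for the class.

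**Figure D1:**
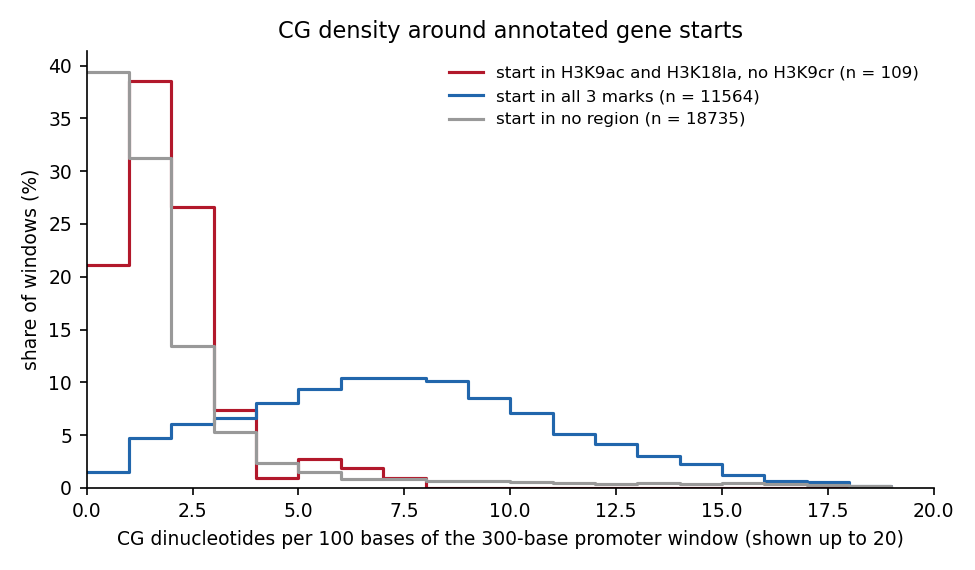
Share of promoter windows (y axis, percent) by CG dinucleotides per 100 bases (x axis, bins of 1, shown up to 20) for starts in dual regions, in regions with all 3 marks and in no region. The dual windows peak low, with a median of 1.67, and the windows with all 3 marks spread around a median of 7.00.

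Short motifs were counted on both strands of the 300-base windows. GGGCGG, the core of the GC box, was in 18.3% of the dual windows, 65.3% of those with all 3 marks and 35.7% of all windows. CAGCTG, an E-box sequence, was in 25.7%, 15.4% and 16.3%, in the same order. ACAATGG, a sequence that SOX factors can bind, was in 9.17%, 1.96% and 3.66%. In the H3K18la alone windows GGGCGG was in 18.1%, CAGCTG in 24.6% and ACAATGG in 5.07%. In the windows in no region they were in 14.5%, 16.9% and 4.88%. The dual windows were only 109 and the H3K18la alone windows 138. The other motifs searched were TGACAG (22.9% of dual windows, 19.2% of all), AGGTCA (19.3% and 16.3%), CAGCAGG (11.9% and 10.5%), TAATTA (7.34% and 5.29%) and TGACTCA (2.75% and 5.20%). No motif's letters contain another's, although matches can overlap in a window. No test was run, and a match is a description and not a bound site.

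Dual regions were mostly far from gene starts. Chromosome 18 starts were not used here, which left 4358 regions with a position. The starts used were incomplete elsewhere too: a dual region inside Fzd3, named below, lay 1913660 bases from the nearest one. Distances, shares by distance and nearest genes hold only for the starts used. Of those 5.97% overlapped a start or lay within 1 kb of it (260 regions), 65.4% were distal, with the nearest start at most 50 kb away (2849 regions), and 28.7% were farther (1249 regions). With all 3 marks 52.7% of regions were at a start, with H3K9ac and H3K9cr 46.9%, with H3K9ac alone 8.57% and with H3K18la alone 5.23%. The 2 classes with H3K9ac and H3K9cr were thus the start classes, and the dual regions shared the positions of the regions with 1 mark. The median distance to a start was 23650 bases, against 260 with all 3 marks. Protein-coding genes held 51.6% of the dual regions inside their bounds, against 75.2% of those with all 3 marks. On the X chromosome lay 23 dual regions (0.511%), against 1.89% of all regions and 0.369% of H3K18la alone regions.

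Dual regions were shorter than the regions with all 3 marks and wider than those with 1 mark. Their median width was 814 bases (quartiles 535 and 1245, longest 8017), against 1988 with all 3 marks, 852 with H3K9ac and H3K9cr, 315 with H3K9ac alone, 355 with H3K18la alone and 836 over all regions. Together they covered 4473 kb. The nearest region with H3K9cr was a median of 13180 bases away, close to the 11360 of H3K9ac alone and the 11923 of H3K18la alone. It lay within 1 kb of 609 dual regions (13.5%) and more than 50 kb from 20.97%. Another dual region was within 1 kb of 702 of them (15.6%).

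The peaks that chose the dual regions were weak for H3K9ac and of middle rank for H3K18la. These values belong to the rule and were not tested. The fold enrichment is the authors' peak value, a ratio over local background, and its percentile within its own list is used here. The strongest H3K9ac peak of a dual region had a median fold of 5.09 in replicate 1 and 4.77 in replicate 2, at percentiles 27.7 and 24.9. Regions with all 3 marks had medians of 36.3 and 34.5, at percentiles 74.2 and 73.3. For H3K18la the gap was small: folds of 4.88 and 4.60 at percentiles 61.8 and 59.7 in dual regions, against 6.31 and 6.10 at percentiles 79.2 and 78.9. H3K9ac alone regions were weaker still, at percentiles 21.4 and 20.3.

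**Figure D2:**
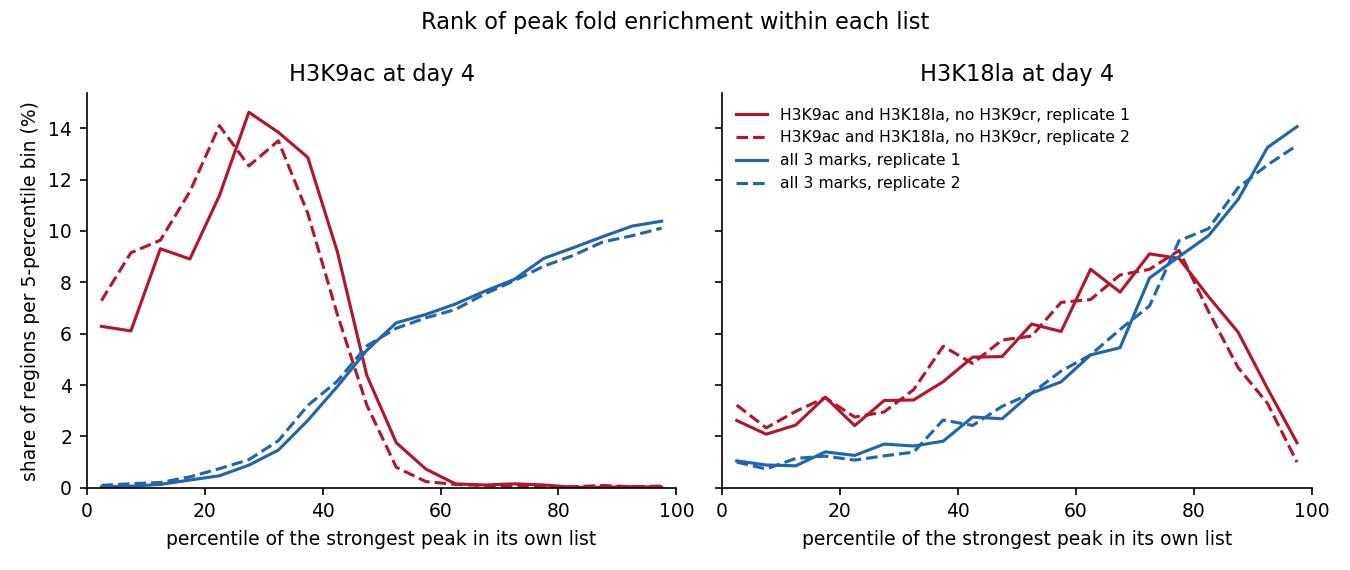
Share of regions (y axis, percent per bin) by the percentile of their strongest peak within its own list (x axis, bins of 5), for H3K9ac (left) and H3K18la (right), both replicates. Dual regions fill the lower part of the H3K9ac ranks, with medians of 27.7 and 24.9, while in H3K18la they overlap the regions with all 3 marks, with medians of 61.8 and 59.7.

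The absence of H3K9cr was an absence of agreement for many of them. No H3K9cr peak of either list touched 2502 dual regions (55.6%). A peak in the replicate 1 list alone touched 822 (18.3%), a peak in the replicate 2 list alone touched 1105 (24.5%), and 73 (1.62%) had a peak in both lists that shared no base. Where a peak was present its median fold was 4.13 in replicate 1 and 4.05 in replicate 2, at percentiles 10.3 and 11.3. Just outside the rule were 109 regions with all 3 marks whose shared H3K9cr cover was no longer than the DNA of 1 nucleosome. Their H3K9cr folds had medians of 3.99 and 3.96, and 18.3% of them were open in both ATAC lists. The median H3K9ac percentile in replicate 1 was 23.2 for dual regions with no H3K9cr peak and 36.1 just outside, so peak strength moved with the rule.

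The 10 dual regions whose 4 peaks ranked highest show the same edge. All 10 had an H3K9cr peak in exactly 1 of the 2 lists. The strongest was at chr10:13860754-13862206 inside Aig1, a membrane hydrolase gene, with H3K9ac folds of 13.7 and 12.0, H3K18la folds of 4.93 and 4.78, and an H3K9cr fold of 9.44 in replicate 1 only. Others lay inside Tenm3, a neuronal adhesion gene (chr8:48458569-48459245), Cdh18, a cadherin of the nervous system (chr15:22717714-22718473), Ncam1, a neural cell adhesion gene (chr9:49755653-49756827), and Fzd3, a Wnt receptor used in axon guidance (chr14:65244492-65245503). The Tenm3, Cdh18 and Fzd3 regions were open in both ATAC lists. Of the remaining 5, 1 lay inside Zswim6, 1 was on chromosome 18, and 3 lay in no gene. Of regions with no H3K9cr peak in either list, picked after their values were seen, a strong one was at chr19:41697598-41700040 inside Slit1, which encodes an axon repellent. Its H3K9ac folds were 8.34 and 8.56 and its H3K18la folds 10.5 and 7.02, and at day 2 it held all 3 marks with DMSO and with MS-275. A region with shared H3K9cr lay only 230 bases from it.

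ATAC-seq, which the rule did not use, found few dual regions open. An ATAC peak touched 1049 dual regions (23.3%) in replicate 1, 764 (17.0%) in replicate 2 and 498 in both (11.1%, 95% Wilson interval 10.2 to 12.0). The interval covers counting error only, and regions are not replicates. In the same lists 65.8% of regions with all 3 marks were open in both, 41.9% with H3K9ac and H3K9cr, 5.93% with H3K9ac alone and 0.984% with H3K18la alone. Of the small classes, 7.14% of the 126 with H3K9cr alone and 8.70% of the 23 with H3K9cr and H3K18la were open in both. The dual regions were open more often than the regions with H3K9ac alone or H3K18la alone and less often than those with H3K9ac and H3K9cr, with or without H3K18la. Where a dual region had an ATAC peak, its median percentile was 45.0 and 42.8, against 66.4 and 64.1 with all 3 marks.

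Peak strength moved with openness. Among regions with a mean H3K9ac percentile of 25 to 50, 15.3% of 2268 dual regions were open in both lists, 21.1% of 2987 with all 3 marks, 18.9% of 2126 with H3K9ac and H3K9cr and 9.50% of 1643 with H3K9ac alone. From 0 to 25 the shares were 6.46% of 2183 dual regions and 14.7% of 170 with all 3 marks. Only 51 dual regions ranked from 50 to 75, and 21.6% of them were open in both, against 55.3% of 6571 with all 3 marks. At like H3K9ac rank the gap to the regions with all 3 marks was thus narrower than over all regions from 0 to 50, where most dual regions ranked. At like width it stayed wide: from 500 to 1000 bases 8.96% of dual regions and 36.1% of regions with all 3 marks were open in both, and above 1500 bases 19.4% and 74.8%. The part of peak strength and width in the overall gap was not tested.

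Open dual regions lay away from starts. The share open in both lists was 7.31% at starts, 8.74% of distal regions and 17.1% beyond 50 kb. Of the 92 dual regions with a start inside, 4 were open in both lists. The 498 open regions were wider (median 1034 bases) than the 3187 open in neither list (767 bases), and their median H3K9ac percentiles were 35.0 and 31.8 against 25.9 and 23.3.

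Most dual regions had no called peak at day 2 with DMSO. A peak missing from 1 list does not show that the mark was absent. In the day 2 DMSO lists 2627 dual regions (58.4%) had no peak of any mark, 787 (17.5%) had H3K18la alone, 594 (13.2%) had all 3 marks and 235 (5.22%) had the day 4 pair. By mark, H3K18la touched 38.0%, H3K9ac 21.4% and H3K9cr 17.0%. Regions with all 3 marks at day 4 had them at day 2 far more widely: 81.6%, 84.3% and 82.4% in the same order. H3K9ac alone regions had 16.7%, 20.7% and 16.3%, so the dual regions stood beside them except for more H3K18la. H3K18la also touched 36.2% of H3K9ac and H3K9cr regions and 16.9% of H3K18la alone regions. Under 500 bases it touched 30.15% of dual regions and 16.1% of H3K9ac alone regions. Of dual regions of 1500 bases or more it touched 49.5%. With 1 library per mark no test was possible. At a mean H3K9ac percentile of 25 to 50 the H3K18la share was 39.5% in dual regions, 51.4% with all 3 marks and 17.8% with H3K9ac alone, and the H3K9cr share was 18.8%, 38.6% and 19.7%.

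With MS-275 at day 2, H3K9ac and H3K9cr peaks each touched most dual regions. A day 2 call rests on a peak in 1 list, while day 4 H3K9cr was called only from bases shared by 2 lists. By 1 day 4 list alone, an H3K9cr peak touched 895 dual regions in replicate 1 and 1178 in replicate 2. The 55.6% given above had none in either list. H3K9ac peaks touched 2883 (64.0%), H3K9cr peaks 2500 (55.5%) and H3K18la peaks 925 (20.5%). In the same order the shares over all 47842 regions were higher, at 73.25%, 68.5% and 24.3%. With all 3 marks they were 94.4%, 92.15% and 39.8%. H3K9ac was found only with MS-275 in 2014 dual regions and only with DMSO in 95. H3K9cr was found only with MS-275 in 1834 (40.7%) and only with DMSO in 99, and 1903 had it in neither list. H3K18la went the other way, with 1112 dual regions (24.7%) marked only with DMSO and 327 (7.26%) only with MS-275. This was not particular to dual regions: with all 3 marks, 44.8% had H3K18la only with DMSO and 3.02% only with MS-275. The commonest MS-275 state was H3K9ac with H3K9cr and no H3K18la, in 1549 dual regions (34.4%), followed by no mark in 1518 (33.7%) and all 3 marks in 870 (19.3%).

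The lists themselves moved the same way, and each group is 1 library. H3K9ac had 26555 peaks with DMSO and 84418 with MS-275, H3K9cr 24874 and 70748, and H3K18la 36382 and 31577. Other weak classes gained too: with MS-275, H3K9ac touched 65.7% of H3K9ac alone regions and 43.1% of H3K18la alone regions, and H3K9cr touched 55.6% and 37.9%. The part of list size in the gain was not tested. Within the dual regions the MS-275 H3K9ac share was 74.6% at starts, 69.0% in distal regions and 50.6% beyond 50 kb. It was 54.0% in those open in both ATAC lists and 67.3% in those open in neither, so the regions open at day 4 were less often acetylated in the MS-275 list. Dual regions with no H3K9cr peak at day 4 had H3K9cr in 13.6% with DMSO and 51.5% with MS-275, and those with a peak in the replicate 1 list alone in 20.6% and 63.0%.

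**Figure D3:**
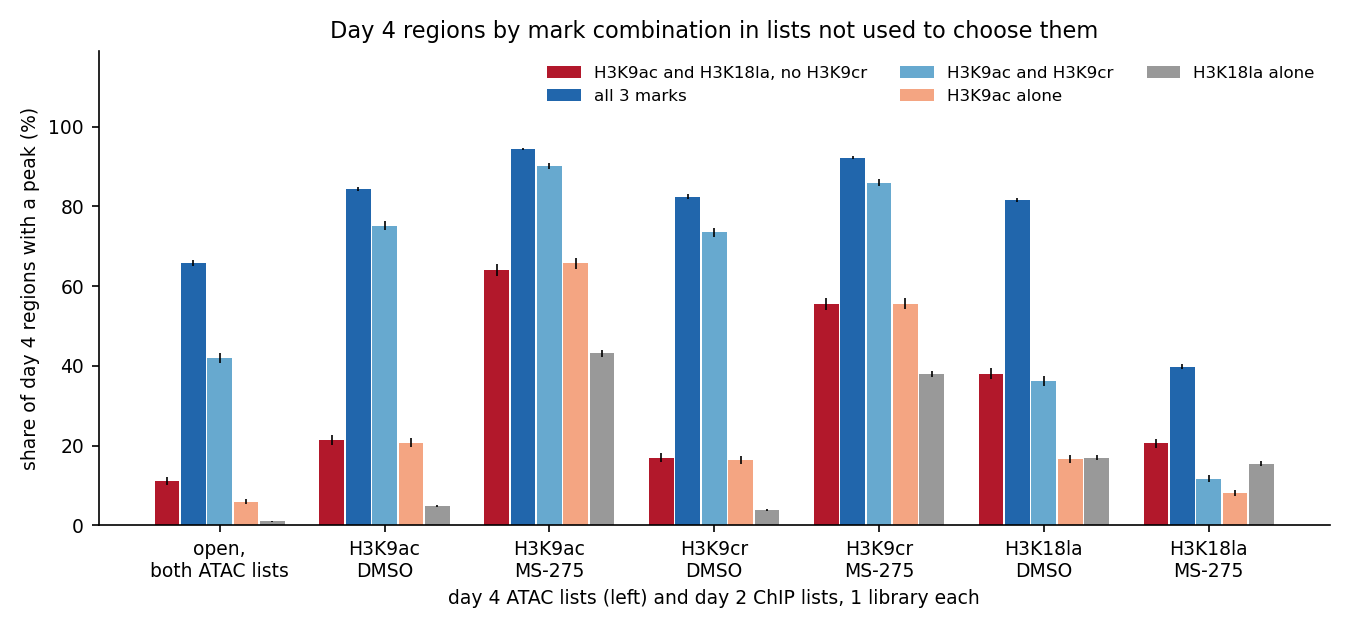
Share of day 4 regions (y axis, percent, from 0) touched by peaks of lists that did not choose them: both day 4 ATAC lists and the 6 day 2 lists, by mark combination, with 95% Wilson intervals that cover counting error only. Dual regions reach 11.1% open, 21.4% with H3K9ac in DMSO and 64.0% with H3K9ac in MS-275.

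Genes whose starts, among those used here, lay within 1 kb of a dual region and of no H3K9cr region were few. Few of them passed the filter on low counts. There were 184 such genes, of which 151 were predicted genes, 93 were in the RNA table, and the others were not measured here. Of the 93, 17 had 0 counts in all 10 libraries. The filter left 26, with a median of 0.54 CPM at day 4, against 37.1 for tested genes with a start at all 3 marks. Day 4 against day 0, 8 of the 26 were higher and 13 lower, beside 36.2% and 36.1% of all genes. A gene could pass the filter through day 0 or day 2 alone, so these counts describe the 26 and not all 184. The excess of lower genes did not hold under other settings: with peaks of a −log10 q of at least 5, 46.7% of 30 tested genes were higher and 33.3% lower, with replicate 1 peak lists alone 30% and 28% of 50, and without RNA replicate 2 of day 4 35.3% of 34 in each direction. Another 73 genes had both a dual region and an H3K9cr region at the start, and of the 53 tested 50.9% were higher and 37.7% lower. For the 1403 tested genes with no region of any class at the start, 20.7% were higher and 38.3% lower.

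The largest fall among these genes was in Pou5f1, which encodes the pluripotency factor OCT4. Its dual region, chr17:35509007-35509358, began 200 bases past an annotated start and held weak peaks, with H3K9ac folds of 3.27 and 4.09 and H3K18la folds of 3.74 and 6.81, an H3K9cr fold of 2.97 in replicate 1 only and no ATAC peak. Pou5f1 RNA was 1434 and 1402 CPM at day 0, 40.0 and 38.0 with DMSO, 77.0 and 81.2 with MS-275, 2.31 and 2.999 at day 4 and 39.4 and 44.1 at day 8. The groups did not overlap. The log2 fold change from day 0 to day 4 was −9.06 (SE 0.09, adjusted p = 3.488e-19, edgeR), the rise to day 8 was 15.7-fold (adjusted p = 2.287e-13), and with MS-275 it was 2.03-fold above DMSO (adjusted p = 1.238e-09). Near-identical copies of this gene exist, and the sources used here do not say how reads were shared among them, so its level is uncertain. The nearest region with H3K9cr was 4847 bases away.

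Cnn1, which encodes the smooth muscle protein calponin, fell in the same way. Its dual region (chr9:22099274-22099591) lay 21 bases past the start, with H3K9ac folds of 3.94 and 2.93 and no H3K9cr peak. Cnn1 RNA went from 101.3 and 90.2 CPM at day 0 to 0.26 and 0.33 at day 4 (log2 −8.30, SE 0.18, adjusted p = 2.054e-16, edgeR), with 4.50 and 5.004 in DMSO and 28.5 and 25.1 in MS-275, a 5.64-fold difference (adjusted p = 4.276e-11). Cebpb, a transcription factor of inflammation and fat cells, had 13.7 and 12.1 CPM at day 0 and 0.73 and 0.56 at day 4 (log2 −4.30, SE 0.49, adjusted p = 5.75e-07, edgeR). Its MS-275 libraries were far apart, at 3.47 and 12.2 CPM, and both were above the DMSO libraries at 0.89 and 0.74. For Pou5f1, Cnn1 and Cebpb the RNA was low at day 4 while both H3K9ac lists and both H3K18la lists held a peak near an annotated start. For Pou5f1 this was the start inside the gene.

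Vsir, an immune checkpoint receptor gene that lies within Cdh23, was highest at day 2. Its dual region (chr10:60346687-60347496) covered the start printed above, with H3K9ac folds of 10.4 and 6.84 and an H3K9cr fold of 5.77 in replicate 1 only, and carried all 3 marks in the day 2 DMSO lists. Vsir RNA was 2.10 and 2.02 CPM at day 0, 9.89 and 9.50 with DMSO, 31.7 and 35.1 with MS-275 and 0.37 and 0.56 at day 4. The log2 difference of day 4 from DMSO was −4.38 (SE 0.23, adjusted p = 4.194e-11, edgeR), and it was 3.45-fold higher with MS-275 (adjusted p = 3.992e-09). The sources used here do not say whether counting used the strand, and without it reads of genes that overlap cannot be told apart. Acy3, an aminoacylase gene whose start is also printed above, had 14.5 and 12.0 CPM with MS-275 and 3.67 and 3.70 with DMSO (3.60-fold, adjusted p = 5.547e-06, edgeR).

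By the rule for named genes, 2 start genes rose from day 0 to day 4. For each the only start used lay inside the gene: chr11:118761041 in Rbfox3 (chr11:118489760-118911597) and chr1:57845571 in Spats2l (chr1:57774102-57948398). The outer ends of these genes were not among the starts used, so H3K9cr there was not checked. Rbfox3, which encodes the neuronal splicing protein NeuN, had its dual region (chr11:118759750-118761508) over the start printed above, with H3K9ac folds of 4.88 and 3.63, H3K18la folds of 4.26 and 3.57, an H3K9cr fold of 3.62 in replicate 2 only and no day 2 peak of any mark in either treatment. Its RNA was 5.46 and 5.16 CPM at day 0, 2.83 and 3.47 with DMSO, 5.35 and 5.87 with MS-275, 40.8 and 35.8 at day 4 and 77.8 and 64.2 at day 8. The rise from day 0 was 7.21-fold (log2 2.85, SE 0.13, adjusted p = 4.053e-12, edgeR), and day 8 was 1.85-fold above day 4 (adjusted p = 1.628e-06). RNA per gene does not show whether this start was the one used. Spats2l, whose dual region (chr1:57845945-57847817) lay 374 bases past a start and 1084 bases from the nearest region with H3K9cr, rose 4.34-fold, from 7.62 and 8.19 CPM to 32.7 and 35.8 (adjusted p = 3.306e-11). Spats2l was also the named start gene that fell with MS-275, from 25.6 and 25.1 to 5.50 and 6.97 CPM (4.07-fold lower, adjusted p = 3.673e-10).

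**Figure D4:**
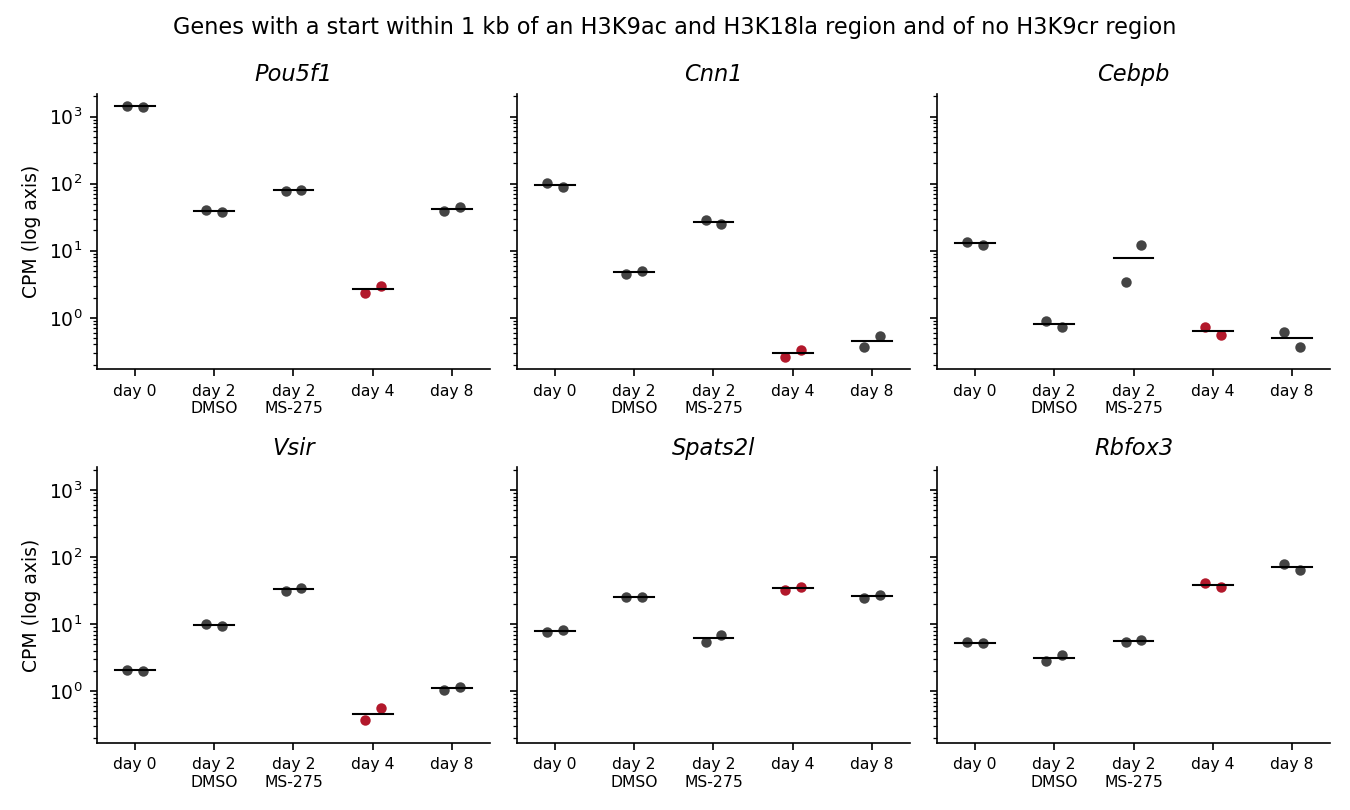
CPM on a log axis (y) for 6 start genes in the 5 RNA groups (x), with 1 point per library, day 4 in red and a line at the mean of 2 libraries. Pou5f1, Cnn1 and Cebpb are high at day 0, Vsir is high at day 2 with MS-275, and Spats2l and Rbfox3 are high at day 4.

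With MS-275, 18 of the 26 tested start genes were higher than with DMSO and 1 was lower, beside 31.9% and 31.4% of all genes, with a median log2 difference of 2.19 against 0.01 over all genes tested. A low gene could pass the filter through the MS-275 libraries themselves: H2-Oa had means of 0.41 CPM with DMSO and 7.15 with MS-275, and Crip1 0.33 and 5.14, both chosen after their values were seen. Without the filter 25% of 76 start genes were higher and 1.32% lower, so nothing is read from the share among the 26. Tested genes with no region at the start, which had a like median at day 4 (0.51 CPM), were 45.2% higher and 8.84% lower, with a median of 1.14. Genes with all 3 marks at the start were 28.8% higher and 40.6% lower. The part of the low RNA level in these shares was not tested. Against day 2 DMSO, day 4 was higher for 7 of the 26 and lower for 6, beside 30.6% of all genes in each direction. From day 4 to day 8, 5 rose and 4 fell, beside 21.7% and 19.8%.

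The 2849 distal dual regions were assigned to the 2126 genes with the nearest start, and the tested ones among these tended to be higher at day 4. Nearest is a rule of distance and does not show that a region acts on that gene. Of 1010 tested genes, 504 (49.9%) were higher at day 4 than at day 0 and 317 (31.4%) lower, beside 36.2% and 36.1% of all genes. Of 11530 tested genes with no distal dual region, 35.3% were higher and 39.1% lower. Other classes went the same way. With at least 1 distal region, 47.7% of tested genes were higher than at day 0 for H3K18la alone. The share was 46.7% for H3K9ac alone and 43.8% for all 3 marks. In the same order 32.3%, 34.5% and 34.1% were lower. Against day 2 DMSO, 461 (45.6%) were higher and 231 (22.9%) lower, beside 30.6% each. From day 4 to day 8 the counts were 278 higher and 292 lower (27.5% and 28.9%, beside 21.7% and 19.8%), and with MS-275 427 and 297 (42.3% and 29.4%, beside 31.9% and 31.4%). For H3K18la alone the shares were 46.4% higher and 24.6% lower against day 2 DMSO, and 47.0% and 25.9% with MS-275.

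The share of higher genes went up with the number of distal dual regions. It was 46.4% of 778 tested genes with exactly 1, 58.0% of 176 with exactly 2 and 73.2% of 56 with at least 3 (41 genes, with 9 lower, median log2 1.47). Against day 2 DMSO, 38 of those 56 were higher and 7 lower. Other classes went up as well: with at least 3 distal regions of a class, 69.0% of 58 tested genes were higher than at day 0 for H3K9ac alone, 57.4% of 350 for H3K18la alone and 57.0% of 228 for all 3 marks. Genes with at least 3 dual regions were longer (median 54.3 kb against 22.3 kb for genes with none), had higher RNA at day 4 (39.8 against 22.0 CPM) and had a median of 1 distal region with all 3 marks against 0. Neighbouring regions can also hold parts of 1 peak, so their number is not a number of separate peaks. At Olfm2, described below, the regions chr9:20702743-20703943 and chr9:20704187-20704926 had the same H3K9ac fold in replicate 1 (5.0025). They also had the same H3K18la fold in replicate 2 (5.3732). The part of gene length, RNA level, regions with all 3 marks and divided peaks in the rise was not tested. With protein-coding starts alone, a choice made after seeing the data, 70.2% of 84 genes were higher.

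**Figure D5:**
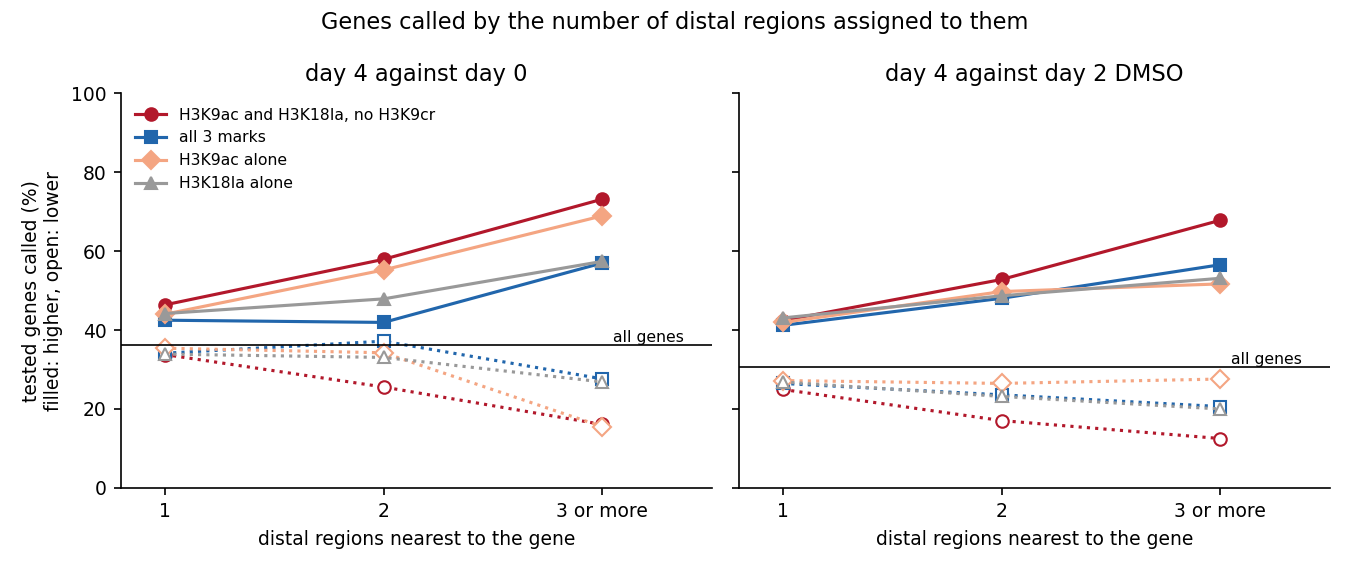
Share of tested genes called (y axis, percent) by the number of distal regions nearest to the gene (x axis), day 4 against day 0 (left) and day 2 DMSO (right), for 4 classes of region, with filled symbols for higher, open symbols for lower and a line at the share of all genes called higher. For dual regions the share higher than at day 0 goes from 46.4% to 73.2%, and for H3K9ac alone it reaches 69.0%.

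The longest series of dual regions beside a gene with a measured transcript was at Olfm2, which encodes a secreted olfactomedin of neural tissue. Of its 7 regions, 6 lay inside the gene, from chr9:20689663-20690521 to chr9:20720436-20721640, and 1 lay 1655 bases before the start (chr9:20747951-20748556). Their H3K9ac folds ran from 4.06 to 6.58. In the day 2 DMSO lists 5 of the 7 had no peak, and the neighbours at chr9:20696121-20697507 and chr9:20697759-20698455 had all 3 marks. Olfm2 RNA was 1.31 and 1.23 CPM at day 0, 12.9 and 11.5 with DMSO, 29.8 and 28.9 with MS-275, 27.0 and 25.5 at day 4 and 57.1 and 52.5 at day 8. It rose 20.5-fold from day 0 to day 4 (log2 4.36, SE 0.14, adjusted p = 4.264e-14, edgeR) and 2.399-fold with MS-275 (adjusted p = 6.341e-09), with no overlap of groups.

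Cuedc1, named for its ubiquitin-binding CUE domain, had 6 dual regions, all inside the gene between chr11:88125904 and chr11:88166387. In DMSO 5 of them had no peak, and with MS-275 those 5 had H3K9ac and H3K9cr while the other had all 3 marks. Cuedc1 RNA was 10.8 and 11.3 CPM at day 0, 84.9 and 91.6 with DMSO, 39.7 and 37.6 with MS-275, 179.5 and 189.4 at day 4 and 149.7 and 132.4 at day 8. It was 16.7-fold higher at day 4 than at day 0 (log2 4.06, SE 0.09, adjusted p = 2.268e-16, edgeR), and with MS-275 it was lower (log2 −1.19, adjusted p = 8.152e-10). At Olfm2 and Cuedc1, MS-275 thus went with more marked regions and opposite changes in RNA.

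The other genes with the most distal dual regions had 5 or 4 each. Gse1, a corepressor component, and Septin9, a cytoskeletal GTP-binding protein, had 5 and rose 2.95-fold and 2.70-fold from day 0 to day 4. Fez1, an adaptor of axonal transport, had 4 and went from 5.25 and 5.94 CPM to 86.9 and 92.1 (16.0-fold, adjusted p = 1.932e-15, edgeR) and then to 189.3 and 172.8 at day 8. Crmp1, a mediator of axon growth signals, had 4 and rose 4.53-fold, and Cd82, a tetraspanin, had 4 and rose 3.86-fold. Aatk, which encodes a kinase, and Abr had 4 each and rose 1.54-fold and 1.39-fold. All 9 named genes with counts were higher at day 4 than at day 0, beside 36.2% of all genes. They are part of the 56 tested genes with at least 3 regions counted above and add no separate result. Gprc5d, with 4 regions, had 0 counts in every library.

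Among nearest genes of distal dual regions that met the rule for named genes (5 CPM or more, predicted genes left out), the 5 largest fitted rises from day 0 to day 4 were in Neurog1, Cyp26b1, Dnm3os, Hes5 and Nhlh1, in that order. Neurog1, a proneural factor, had 0 counts at day 0 and 114.6 and 96.4 CPM at day 4, at least 1297-fold higher when day 0 is set to a floor of 3 counts in all. Its 2 dual regions (chr13:56225471-56227486 and chr13:56228369-56229607) lay 22573 bases or more from the start, and its own start carried all 3 marks. Hes5, a Notch target that keeps progenitors dividing, had 3 counts at day 0 and 93.3 and 77.7 CPM at day 4, a count ratio of 1051 (95% counting interval 359.2 to 5098). Its dual regions (chr4:154949799-154950102 and chr4:154950300-154950540) lay 10821 and 10383 bases from the start, without a peak in DMSO and with H3K9ac and H3K9cr in MS-275. Cyp26b1, which breaks down retinoic acid, had 1 count at day 0 and 110.8 and 146.9 CPM at day 4, a count ratio of 4720 (846.8 to 186485). Nhlh1, a factor of early neurons, went from 0.26 and 0.11 to 191 and 165.5 CPM. Dnm3os, a noncoding transcript inside Dnm3 on the other strand, had 3 dual regions and went from 0 counts to 10.7 and 11.1 CPM, but without strand its reads cannot be told from those of Dnm3.

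Several of these genes did not stay high. From day 4 to day 8, Cyp26b1 fell to 3.62 and 3.07 CPM (log2 −5.26, adjusted p = 2.617e-13, edgeR), Neurog1 to 11.5 and 14.5 (log2 −3.03, adjusted p = 3.498e-11) and Msx1, a factor of the dorsal neural tube and neural crest, from 109.3 and 125.3 to 12.0 and 12.3 (log2 −3.27, adjusted p = 4.344e-13). With MS-275 Hes5 was 1.29 and 0.70 CPM against 12.5 and 11.7 with DMSO (12.1-fold lower, adjusted p = 2.62e-10). Lrrc4, a synaptic adhesion gene, was 0.40 and 0.75 against 58.1 and 49.1 (92.9-fold lower, adjusted p = 6.228e-14). Igfbp5, an insulin-like growth factor binding protein gene with 3 dual regions, was 17.1 and 20.9 against 347 and 345.6 (log2 −4.19, adjusted p = 1.471e-15). The MS-275 rises included Tesc, a calcium-binding protein gene (58.3-fold), and Slc7a8, an amino acid transporter gene (21.03-fold).

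Among falls to day 4, Etv5, an ETS factor downstream of fibroblast growth factor, had its 2 dual regions inside the gene and went from 294.2 and 287.5 CPM at day 0 to 9.76 and 6.55 (35.5-fold lower, adjusted p = 5.091e-16, edgeR) and back to 60.4 and 58.7 at day 8. Prtg, a receptor of early neural precursors, was 388.9 and 398.2 CPM with DMSO and 7.19 and 7.998 at day 4 (51.8-fold lower, adjusted p = 6.378e-17). Hoxb1, a hindbrain patterning gene turned on early by retinoic acid, went from 141.8 and 146.3 with DMSO to 13.2 and 12.4 at day 4 (11.2-fold lower, adjusted p = 1.456e-14). Cdk18, a cyclin-dependent kinase gene, fell 42.6-fold from day 0 (adjusted p = 2.706e-11), and Trp73, a p53 relative, went from 48.9 and 43.2 CPM to 0.10 and 0.33. A distal dual region was thus also found beside genes that had fallen.

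Gene lists with members linked to dual regions are given by their counts. Of 20 retinoic acid response genes, 14 were higher and 3 lower at day 4 than at day 0 (median log2 2.17, against 0.01 over all genes), and 6 were linked to dual regions (Rara, Rarb, Rxra, Cyp26b1, Crabp1 and Nr2f1), all higher. Rarb, a retinoic acid receptor, went from 1.58 and 0.90 to 138.7 and 141.8 CPM, and Nr2f1, a nuclear receptor of the developing cortex, from 0.42 and 0.34 to 341.6 and 353.7. With MS-275, 5 of these 6 were lower and 1 higher, beside 10 lower and 8 higher in the whole list and 31.4% and 31.9% of all genes. The 5 linked neural stem and progenitor genes (Fabp7, Hes5, Notch1, Olig3 and Neurog1) and the 3 linked neuron genes (Rbfox3, Nhlh1 and Tlx3) were all higher at day 4, as were most members of those lists. In the Notch list 16 of 23 genes were higher and 3 lower. Notch1, the receptor, went from 29.7 and 27.7 CPM to 526.8 and 533.2 (18.5-fold, adjusted p = 1.329e-17, edgeR), while its ligand Jag2 fell (log2 −0.94, adjusted p = 9.512e-09).

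Other lists were mixed. Of 6 linked axon guidance genes 5 were higher, led by Sema6d (25.9-fold) and Epha4 (14.6-fold), in a list with 30 of 33 higher. Of 5 linked Wnt genes 1 was higher (Fzd9, a receptor, 3.61-fold) and 3 lower, among them Tcf7l1, a repressor of Wnt targets, from 207.1 and 202.6 to 29.9 and 34.2 CPM (log2 −2.68, adjusted p = 5.715e-14, edgeR), and Tcf7 (log2 −2.11), in a list with 20 of 34 higher. Of 3 linked genes that write, erase or read histone acylation, Mllt3, whose product binds acetylated and crotonylated lysine, rose 19.6-fold, while of the deacetylase genes Hdac7 rose 2.42-fold and Hdac4 fell (log2 −0.73), in a list with 16 of 35 higher and 13 lower. Of acyl-CoA supply genes Bcat1 and Acads were linked and fell (log2 −1.64 and −0.67), in a list with 11 of 20 higher and 7 lower. Pluripotency had 2 linked genes, Pou5f1 at a start inside the gene and Sox2, 30120 bases away, which neural progenitors keep and which rose 1.40-fold. Linked genes of other cells were Msx1, Tfap2a and Mitf of neural crest and Col1a2 of fibroblasts, and no gene of the astrocyte and oligodendrocyte, glycolysis and lactate or mitosis lists was linked (8 of 18, 4 of 24 and 2 of 24 tested genes higher, and 7, 13 and 17 lower). The Hox list had 15 of 15 higher with Hoxb1 linked, the primitive streak and endoderm list 7 of 13 higher and 3 lower with Foxa1 linked, and the cardiac and muscle list 3 of 12 higher and 5 lower with Nkx2-5 and Tnnt2 linked. Afp, Cdx2, Cer1, Myl7, Myod1 and Myog of those last lists had 0 CPM in both day 4 libraries.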

How the data were processed

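The authors deposited 1 peak list per ChIP-seq and ATAC-seq library, with the column names of MACS2 per the file headers. Bowtie2 2.4.1, MACS2 2.2.7.1, Salmon 1.1.0, DESeq2 1.26.0 and GRCm38 are named in the submitters' processing notes. Each deposited list gives a position, a pileup signal, −log10 p-values and q-values, and a fold enrichment, a ratio of the authors' caller. The lowest −log10 q of a list was 2.00 to 2.02. Caller settings and controls are not given in the sources used here. Each deposited RNA column holds estimated counts per gene (19.2% to 25.8% of a library's values not whole), which were rounded.

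The members, gene lists and tests were chosen with earlier results of these data known. Regions were built with Python 3.11.15 code checked against bedtools 2.31.1 on closed intervals. A peak touched a region by at least 1 shared base. Starts came from RefSeq's promoter table for GRCm38.p6, and identifiers were matched to symbols for 55144 of 55385 genes. After the low-count filter filterByExpr (17789 genes left) and TMM scaling, the quasi-likelihood test of edgeR 4.0.16 was run from a joint model of all 10 libraries, a test checked on simulated data. Calls are at 0.05 after Benjamini-Hochberg adjustment across these genes. The series describes its replicates as biological, and p-values measure the spread between these libraries. The SE is the log2 change divided by the square root of F. Compared with 0 counts a fold is a lower bound from a floor of 3 counts over the group, and against 1 to 3 counts a ratio with a counting interval is given. Genes whose fitted fold moved by over 1.5 times without 1 library are given by CPM.

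Named genes were, per comparison and separately for start genes and nearest genes of distal regions, the 5 largest rises and falls that were called, 2-fold or more, with a mean of 5 CPM or more over both groups and no overlap of libraries, leaving out predicted genes. The 10 genes with the most distal regions, the 10 highest-ranking regions and the 3 largest called changes per list among 17 lists were also taken, and the text gives a selection. Replicate numbers did not pair the samples: correlations of same-numbered deviations were −0.03 to 0.04. No genome sequence was used here, so the sequence of the regions themselves was not analysed here.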

Additional observations from a re-analysis of the deposited data

How the results depend on the processing

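Of 479 recomputed values of the main results, 393 stayed within the spread or within 1.5 times and 86 moved. A share has no sign, but the larger direction turned or tied under some alternatives for start genes against day 0 (30.8% higher, 50% lower), against DMSO (26.9%, 23.1%) and at day 8 (19.2%, 15.4%). It turned also for nearest genes at day 8 (27.5%, 28.9%) and for genes with at least 3 regions at day 8 (39.3%, 26.8%) and with MS-275 (46.4%, 21.4%). With peaks of a −log10 q of at least 5, the day 2 shares of dual regions were 15.4% for H3K9cr and 33.6% for H3K18la with DMSO, and 57.4%, 48.8% and 12.6% for H3K9ac, H3K9cr and H3K18la with MS-275. Start genes were then 46.7% higher and 33.3% lower against day 0, 43.3% higher against DMSO, 23.3% lower at day 8 and 13.3% lower with MS-275. With no H3K9cr peak in either list there were 2502 regions, 8.75% open and 5.16% at a start. Day 2 shares were 17.3%, 13.6% and 35.6% with DMSO for H3K9ac, H3K9cr and H3K18la, and 60.3% and 51.5% with MS-275 for H3K9ac and H3K9cr. Only 5 start genes were tested there: 20% fell to day 4, 0% rose to day 8, and 40.0% were higher and 0% lower with MS-275. Of its 19 genes with at least 3 distal regions, 10.5% were lower than at day 0, 5.26% lower than with DMSO and 5.26% lower with MS-275. Merging regions within 500 bases gave 15.4% open, day 2 H3K18la in 39.4% with DMSO and 23.2% with MS-275, and 10.0% of genes with at least 3 regions lower than at day 0.

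Where both marks had to cover most of the region (at least 50 in 100 bases) 2245 regions remained. Day 2 shares were 22.8% (H3K9ac) and 36.2% (H3K18la) with DMSO, and 65.5% and 17.9% with MS-275. Of 13 start genes 15.4% were higher than at day 0, 7.69% higher at day 8 and 7.69% lower with MS-275. Of 11 genes with at least 3 regions 45.5% fell to day 8 and 18.2% were higher with MS-275. A start window of 5 kb put 17.0% of regions at a start and 54.3% distal, with 7.14% of genes with at least 3 regions lower than with DMSO and 0% of start genes lower with MS-275. An overlap of at least a nucleosome's DNA gave 6.26% open and 62.6%, 54.1% and 19.2% with MS-275. Protein-coding starts alone, a choice made after seeing the data, put 2.13% at a start and 45.8% distal, with 41.7% of genes with at least 3 regions lower at day 8. Without the filter on low counts 76 start genes were tested, with 14.5% higher and 17.1% lower against day 0, 11.8% and 7.89% against DMSO, 6.58% and 5.26% at day 8, and 25% and 1.32% with MS-275, since more genes near 0 were tested. In the fit of only the 4 libraries compared 28.6% of start genes fell to day 8, and with DESeq2 1.42.0 7.69%. The cause of the other moves was not tested.

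Leaving out 1 replicate at a time gave 5110 to 5793 regions, of which 15.1% to 20.7% were open. Open there means a peak in the 1 ATAC list kept, a measure by which the main regions had 23.3% and 17.0%. Day 2 shares were 17.3% to 17.5%, 13.7% to 14.1% and 32.7% to 33.0% with DMSO (H3K9ac, H3K9cr, H3K18la). With MS-275 they were 61.5% to 61.9% and 53.1% to 53.9% (H3K9ac, H3K9cr). Start genes ranged from 28.0% to 43.8% lower against day 0, 14.7% to 18% lower against DMSO, 11.8% to 18% higher and 5.88% to 16.7% lower at day 8, and 2.00% to 5.88% lower with MS-275. Genes with at least 3 regions ranged from 14.3% to 25% lower against day 0. With the replicate number as a block, nearest genes of distal regions were 49.6% higher and 31.2% lower against day 0, and the block moved no share of these gene sets by over 1.5 times. The numbers did not pair the samples. Of 1124 recomputed values of named genes 1121 kept their direction and side of the threshold. Aatk with MS-275 passed it without DMSO replicate 1 (log2 0.58), and Vsir from day 4 to day 8 missed it in the fit of 4 libraries (log2 1.25) and without day 4 replicate 1 (log2 0.96). With 1 ChIP-seq library per mark and treatment at day 2, no replicate spread could be measured there.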
